A study of Mus musculus with 18 samples.

Results

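The 10 genes described here encode elastin, the fibrillins, the fibulins and the microfibril-associated proteins of cardiac fibroblasts. They were chosen by name and taken as rows of the deposited count table, and all 10 were found among its 55453 gene symbols. All 10 also passed the filter on low counts that left 16170 genes for testing. They are Eln, Fbn1, Fbn2, Fbln1, Fbln2, Fbln5, Efemp1 (fibulin-3), Efemp2 (fibulin-4), Mfap4 and Mfap5.

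Bulk RNA sequencing was performed on GFP+ cells sorted from the apex side of ventricles, taken from Tcf21-MerCreMer; Rosa-mTmG pups (strain C57BL/6J per the labels, heterozygous for both alleles per the methods) given tamoxifen at P1 (postnatal day 1). In these mice a tamoxifen-inducible Cre recombinase driven from the Tcf21 locus switches labelled cells from tdTomato to GFP. All 6 groups thus share the transgenes and the tamoxifen. The gate was meant to leave out cells that did not express Tcf21 at labelling, though reads of other cells' markers were found. The 18 libraries form 6 groups of 3. Un-manipulated pups were collected at P2 (P2 baseline) and P10 (P10 baseline). Surgery at P2, either a sham operation or removal of the apex, was followed by collection 3 days later at P5 (P2 sham +3 days, P2 resected +3 days). Pups operated on at P10 were collected at P13 (P10 sham +3 days, P10 resected +3 days). P2 is the regenerative and P10 the non-regenerative time of injury. Neither the labels nor the methods give the sex of the pups or how many went into a library, so p-values measure the spread between these libraries, which may be partly technical.

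Elastic fibres give tissue its recoil. They form when tropoelastin, the product of Eln, is deposited on a scaffold of microfibrils made of fibrillin, with fibulins guiding its coacervation and lysyl oxidases crosslinking it. Microfibrils without elastin also bind latent growth factors of the TGF-beta family. In the heart, cardiac fibroblasts and vascular smooth muscle cells are the main sources of these proteins, which are laid down largely around birth.

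The libraries held from 10462737 to 22980554 counted reads. Levels are given as CPM, the count of a gene scaled to the depth of its library with TMM factors, and levels of different genes are compared only as CPM per kb of exon. Fibroblast markers (10 genes including Tcf21, Pdgfra and Col1a1) summed to 46324 to 93438 CPM at P2 and 78272 to 114610 CPM at P10. Cardiomyocyte markers summed to 309 to 1451 CPM at P2 and 156 to 809 CPM at P10, macrophage markers to 5.29 to 447 CPM and 17.7 to 1081 CPM, and endothelial markers to 193 to 523 CPM and 287 to 552 CPM. Epicardial and mesothelial markers summed to at most 59.4 CPM. Libraries also differed in the level of genes with long transcripts. A long-transcript index, the median centred log2 CPM of the 1359 tested genes with over 10000 exon bases, ran from -0.60 to 0.66, and replicates of P2 sham +3 days and of P10 baseline lay at both ends of this range. Its mean was 0.17 over the P2 and -0.10 over the P10 libraries, and whether it reflects RNA quality, library preparation or expression was not tested. The comparisons of the ages were repeated in 7 other fits, 6 for the comparison of all P10 with all P2 libraries (DESeq2, limma voom, edgeR with other size factors, without the filter, with the replicate number as a block, with this index as a covariate and with only the groups compared), and members called there but not in the fit reported are named with their results.

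The 3 short fibulins, Efemp1, Efemp2 and Fbln5, are related in sequence and domain layout but differed in how their transcripts varied with age. Their promoters are shown for this reason, as the 250 bases before the first RefSeq start site listed for each in GRCm38.p6. The Efemp1 window is chr11:28852955-28853204 on the plus strand, the Efemp2 window chr19:5473696-5473945 on the plus strand, and the Fbln5 window chr12:101819120-101819369 on the minus strand. Capitals mark matches, on either strand, to 6 short motifs.
Efemp1: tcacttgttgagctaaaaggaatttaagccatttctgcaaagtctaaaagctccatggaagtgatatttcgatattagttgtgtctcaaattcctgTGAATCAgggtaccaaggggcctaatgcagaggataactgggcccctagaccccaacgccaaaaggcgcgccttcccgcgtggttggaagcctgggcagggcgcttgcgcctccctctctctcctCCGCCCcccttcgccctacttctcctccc
Efemp2: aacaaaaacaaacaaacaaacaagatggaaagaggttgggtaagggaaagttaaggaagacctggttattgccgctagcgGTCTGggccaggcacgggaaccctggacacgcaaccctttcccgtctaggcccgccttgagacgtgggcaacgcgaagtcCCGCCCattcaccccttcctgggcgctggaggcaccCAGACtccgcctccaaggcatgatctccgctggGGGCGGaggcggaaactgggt
Fbln5: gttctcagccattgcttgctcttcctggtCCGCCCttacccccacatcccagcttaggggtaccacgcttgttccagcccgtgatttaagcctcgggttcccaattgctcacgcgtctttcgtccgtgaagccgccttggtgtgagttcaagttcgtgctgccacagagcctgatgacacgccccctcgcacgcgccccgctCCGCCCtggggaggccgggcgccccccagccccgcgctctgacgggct
The Efemp1 window held 1 match to the GC box (GGGCGG) and 1 to the AP-1 site (TGANTCA). The Efemp2 window held 2 GC boxes and 2 Smad boxes (CAGAC), and the Fbln5 window 2 GC boxes. The motifs depended on the start site. Efemp2 has 3 listed start sites, and the other windows held 5 GC boxes each and no Smad box. Fbln5 has 2, and its other window held 2 Smad boxes and no GC box. None of these 3 windows held the TATA box (TATAAA), the Tead core (GGAATG) or the E-box (CAGCTG). The GC box was found in 32.7%, the AP-1 site in 6.75% and the Smad box in 42.2% of 32851 promoters of this length. The Efemp1 window ends on the first base of the annotated gene. Promoter windows were found for 6 of the 10 members, and none was found for Eln, Fbn2, Mfap4 and Mfap5. A match of letters is a description only.

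In the P10 window, the mean of the 3 P10 groups, 7 of the 10 genes were higher than in the P2 window. These were Efemp1, Mfap4, Eln, Fbln1, Mfap5, Fbln5 and Fbln2, with log2 fold changes from 0.93 to 4.66. No member fell, and Fbn1, Fbn2 and Efemp2 did not pass the test (edgeR's quasi-likelihood test, Benjamini-Hochberg adjusted p under 0.05 over all genes tested). Of all 16170 genes, 7.11% rose and 6.39% fell in this comparison. Efemp1 and Mfap4 were higher in every P10 library than in every P2 library, as were 1.15% of all genes. The median log2 fold change of the members was 1.18, and that of all genes tested was -0.06. Together the 10 genes took 0.570% to 0.953% of the counts in the 9 P2 libraries and 1.06% to 1.36% in the 9 P10 libraries. In RNA from sorted cells in bulk, a change in the share of cells that express a gene and a change of RNA per cell cannot be told apart.

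**Figure D1:**
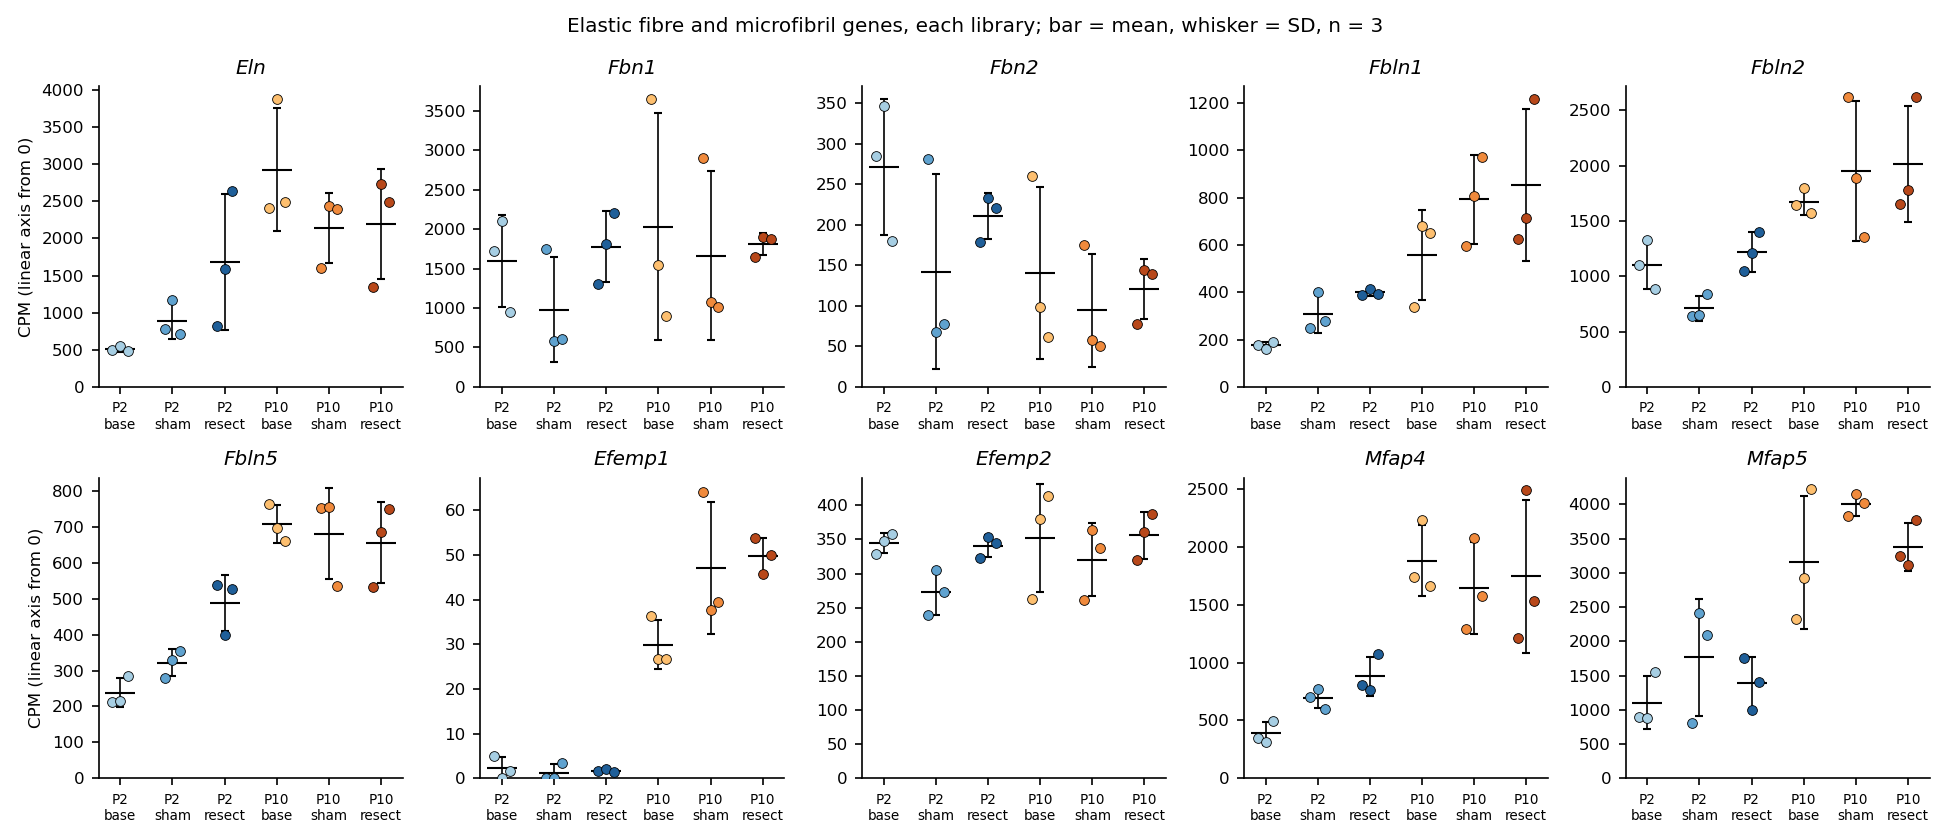
Level of each of the 10 genes in each library, as CPM on a linear axis from 0, for the 6 groups of 3 libraries. Horizontal bars are group means and whiskers SDs. Efemp1 and Mfap4 are higher in every P10 library than in every P2 library, Efemp2 lies between 239 and 413 CPM in all 18, and Fbn1 runs from 896 to 3648 CPM within P10 baseline.

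Compared per kb of exon, the microfibril-associated genes were the most abundant members in both windows. Mfap5 was at 396 ± 162 CPM per kb (SD, n = 9) in the P2 window and 978 ± 179 in the P10 window, and Mfap4 at 340 ± 125 and 914 ± 223. At P2 baseline Eln ranked 6 of 10 at 63.1 ± 4.56 CPM per kb (SD, n = 3), below Efemp2 at 91.0 ± 3.88. At P10 baseline Eln ranked 3 at 362 ± 102, and Efemp2 ranked 8 at 93.0 ± 20.8. All 3 Eln libraries lay above those of Fbln2, the next in order at 262 ± 18.0. Fbn1 (167 ± 119), Fbln1 (128 ± 43.5), Fbln5 (102 ± 7.66) and Efemp2 followed, and each overlapped its neighbours in this order. Efemp1, at 13.2 to 17.8 CPM per kb, and Fbn2, at 4.68 to 19.7, were the lowest members at P10 baseline and overlapped. Lengths of exon come from GENCODE M21 rather than the M22 used for counting. Each length joins the exons of all annotated transcripts of a gene, so it can exceed that of a single mRNA. How far the order of the members depends on this was not tested.

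Eln (ENSMUSG00000029675, chromosome 5, 134702593 to 134747323), the elastic core protein of the fibre, was 493, 554 and 487 CPM at P2 baseline and 2410, 3886 and 2494 CPM at P10 baseline. Every P10 baseline library lay above every P2 baseline library. Its log2 fold change was 2.52 ± 0.38 (SE; edgeR's quasi-likelihood test, adjusted p = 0.000918). At P2 sham +3 days it was 784, 1176 and 712 CPM, and at P10 sham +3 days 1596, 2434 and 2401 CPM. These groups did not overlap either, but the log2 fold change of 1.27 ± 0.36 missed the threshold (edgeR, adjusted p = 0.0668). It was called in 5 of the 7 other fits, among them the one with the long-transcript index as a covariate (1.21; edgeR, adjusted p = 0.0377). After resection the ages overlapped, with 818, 1591 and 2636 CPM at P2 and 1347, 2731 and 2498 CPM at P10, and a log2 fold change of 0.38 ± 0.36 (edgeR, adjusted p = 0.935). Without the third P2 resected library, the highest of the 9 P2 libraries, that value was 0.86, and without the first it was 0.049. The age difference after resection minus that at baseline was -2.14 ± 0.51 on the log2 scale and did not pass the test in the fit reported (edgeR, adjusted p = 0.187). This contrast was added after the values were seen. Eln, Fbln5 and Mfap4 had an unadjusted p under 0.05 in it, where 5.9% of all genes did and 0.0557% were called. Limma voom called these 3, DESeq2 Eln and Fbln5, and edgeR without the filter Eln, where 0.952%, 0.884% and 0.668% of all genes were called.

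The genes whose pattern over the 18 libraries was most like that of Eln, by the smallest root mean square difference of centred log2 CPM among 9468 genes, were Itga7 (0.317), Gas6 (0.360), Galnt16 (0.410), Ltbp3 (0.416) and Cpxm1 (0.442). Their log2 fold changes in the window comparison ran from 1.02 to 1.53, a direction that choosing them by likeness to Eln fixes. Among the members Mfap4 was closest at 0.355, which would place it between Itga7 and Gas6, and Efemp1 farthest at 2.64.

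Fbn1 (ENSMUSG00000027204, chromosome 2, 125300594 to 125507993) and Fbn2 (ENSMUSG00000024598, chromosome 18, 58008623 to 58210487) encode the fibrillins, the backbone of microfibrils, Fbn2 being the form associated with development. Fbn1 was 1723, 2099 and 954 CPM at P2 baseline and 3648, 1543 and 896 CPM at P10 baseline. Both the highest and the lowest of these 6 values were P10 libraries. In the P10 against the P2 window the log2 fold change of Fbn1 was 0.38 ± 0.30 (edgeR, adjusted p = 0.443). Fbn2 was 286, 347 and 181 CPM at P2 baseline and 261, 99 and 61.8 CPM at P10 baseline, again with overlap. Its log2 fold change in the window comparison was -0.78 ± 0.34 (edgeR, adjusted p = 0.136). After resection Fbn2 was lower in all P10 libraries, as were 12.7% of all genes, with 179, 234 and 220 CPM at P2 and 78.2, 144 and 139 CPM at P10, but the test was not passed (edgeR, adjusted p = 0.856).

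Both fibrillin transcripts are longer than 10000 exon bases, and their levels moved with the long-transcript index. In the library with the highest index of its group, Fbn1 was the highest replicate in 5 of 6 groups and Fbn2 in 4 of 6, while Fbln1, with 4368 exon bases, was the lowest in 5 of 6. P10 baseline replicate 1, with an index of 0.66, held 3648 CPM of Fbn1, and replicate 3, with an index of -0.59, held 896 CPM. With the index as a covariate, a setting added after the data were seen, Fbn1 was called higher in the P10 window at a log2 fold change of 0.74 (edgeR, adjusted p = 0.000342), and Fbn2 was at -0.37 (adjusted p = 0.109). Fbn1 was then also called at baseline (0.76, adjusted p = 0.0296) and after sham surgery (1.01, adjusted p = 0.00491). No other of the alternative fits called it in the window, at baseline or after sham surgery. For P10 baseline against P2 sham +3 days edgeR without the filter called it too. In the window comparison the covariate fit called 3252 genes, against 2184 without the covariate. By limma voom with quality weights Fbn2 was called lower in the window, at -1.01 (adjusted p = 0.00172), and Fbn1 was at 0.19 (adjusted p = 0.486). At baseline limma voom alone called Fbn2 lower. Fbn2 was also called lower by edgeR without the filter on low counts (-0.74) and without the first library of P10 baseline or of P10 sham +3 days (-1.05 each). Exons of the antisense gene Gm9913 cover 20.1% of the Fbn1 exon bases, and counting ignored strand.

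Within a library, Fbn2 relative to Fbn1 compares a pair of transcripts of nearly equal length. There were 16.6, 16.5 and 18.9 Fbn2 reads per 100 Fbn1 reads at P2 baseline, 16.1, 11.7 and 12.8 at P2 sham +3 days, and 13.6, 12.9 and 9.98 at P2 resected +3 days. The P10 libraries held 6.42 to 7.15 at baseline, 4.92 to 6.02 after sham surgery and 4.74 to 7.60 after resection. All 9 P2 libraries lay above all 9 P10 libraries. This ratio was chosen after the values were seen, and it is given as a description with no test.

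**Figure D2:**
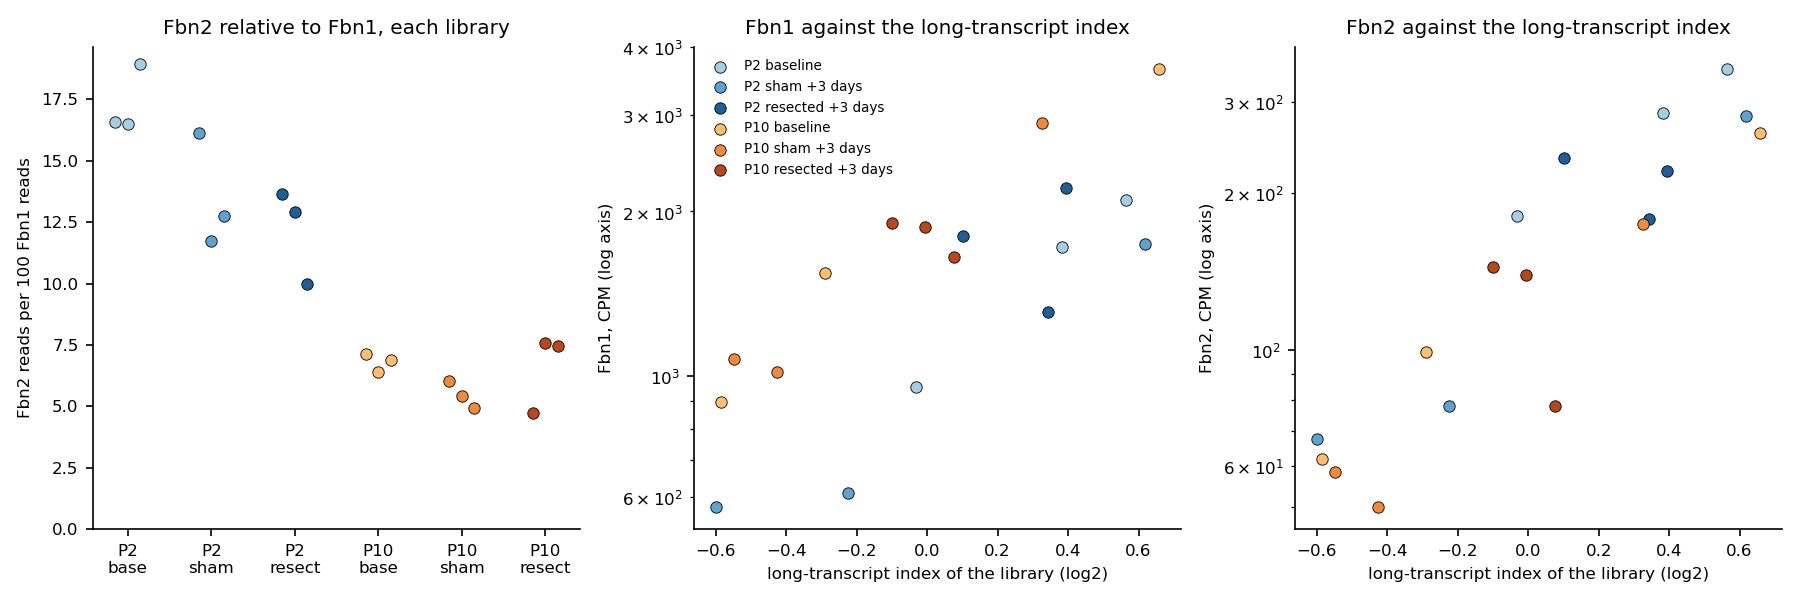
Left, Fbn2 reads per 100 Fbn1 reads in each library of the 6 groups, on an axis from 0. Middle and right, CPM of Fbn1 and Fbn2 on a log axis against the long-transcript index (log2) of the same library. The ratio is 9.98 or more in every P2 library and 7.60 or less in every P10 library, whereas the library with the highest index of its group has the most Fbn1 in 5 of 6 groups and the most Fbn2 in 4.

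The genes most like Fbn2 over the 18 libraries were Map2 (0.300), Peg3 (0.300), Slit2 (0.320), Igf2r (0.329) and Igf1r (0.360), by the same root mean square difference. Their exons span between 9308 and 25433 bases, against 13215 for Fbn2. Fbn1 was at a distance of 0.645 from Fbn2.

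Fbln1 (ENSMUSG00000006369, chromosome 15, 85205949 to 85286535) and Fbln2 (ENSMUSG00000064080, chromosome 6, 91212455 to 91272540) encode the longer fibulins, which bind elastin, fibronectin and basement membrane proteins. Fbln1 was 176, 162 and 191 CPM at P2 baseline and 338, 682 and 651 CPM at P10 baseline, with no overlap (log2 fold change 1.66 ± 0.30). After sham surgery Fbln1 was 250, 401 and 279 CPM at P2 and 598, 808 and 971 CPM at P10 (1.35 ± 0.30). Both comparisons were called (edgeR, adjusted p = 0.00407 and 0.0152). After resection Fbln1 was tight at P2, with 390, 414 and 393 CPM, against 625, 715 and 1219 CPM at P10. The sham call was lost without P2 sham replicate 1 or 3 or P10 sham replicate 3. After resection the log2 fold change of 1.10 ± 0.29 missed the threshold (edgeR, adjusted p = 0.0995). With the replicate number as a block over all 6 groups, it was called at 1.05 (edgeR, adjusted p = 0.0490). Fbln1 was the 1 member called there, where 1.15% of all genes were. It was called in 5 of the 7 other fits, with the index as a covariate at 0.91 (edgeR, adjusted p = 0.0269).

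Fbln2 was 1104, 1326 and 885 CPM at P2 baseline and 1642, 1796 and 1572 CPM at P10 baseline, without overlap but below the threshold at 0.60 ± 0.25 (edgeR, adjusted p = 0.197). At P2 sham +3 days it was 645, 647 and 839 CPM, lower than in every P2 baseline library. P10 sham +3 days held 2618, 1890 and 1352 CPM, and the log2 fold change of 1.46 ± 0.25 was called (edgeR, adjusted p = 0.00288). After resection the P2 libraries (1047, 1209 and 1400 CPM) lay below those at P10 (1656, 1777 and 2619 CPM), at 0.73 ± 0.25 (edgeR, adjusted p = 0.259). At baseline and after resection limma voom alone among the 7 other fits called Fbln2. Whether the age difference of Fbln2 differed between sham and baseline was not tested.

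Fbln5 (ENSMUSG00000021186, chromosome 12, 101746565 to 101819055), a short fibulin needed for elastic fibre assembly, was 214, 215 and 284 CPM at P2 baseline and 765, 696 and 661 CPM at P10 baseline. The groups were far apart, with a log2 fold change of 1.57 ± 0.21 (edgeR, adjusted p = 0.000389). At P2 sham +3 days it was 280, 331 and 354 CPM and at P2 resected +3 days 539, 398 and 528 CPM, the P2 libraries nearest to those at P10. P10 sham +3 days held 753, 754 and 536 CPM and P10 resected +3 days 531, 687 and 749 CPM. The age difference was called after sham surgery (1.08 ± 0.21; edgeR, adjusted p = 0.00663). After resection the lowest P10 library lay below the highest P2 library, and the difference of 0.43 ± 0.21 was not called (edgeR, adjusted p = 0.596).

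Efemp1 (ENSMUSG00000020467, chromosome 11, 28853204 to 28926743), a short fibulin of the basement membrane zone and fascia, showed the largest fold among the members and had few reads at P2. It had 109, 0 and 26 reads at P2 baseline, 0, 1 and 54 at P2 sham +3 days and 28, 49 and 25 at P2 resected +3 days, which is 0 to 5.01 CPM. The 9 P10 libraries held 272 to 1285 reads, or 26.8 to 64.1 CPM, all above every P2 library. The log2 fold change in the window comparison was 4.66 ± 0.71 (edgeR, adjusted p = 0.000238). A count of 0 allows up to 3 reads by counting error alone. After sham surgery the difference was 5.37 ± 1.28 (edgeR, adjusted p = 0.0272), and without the third P2 sham library, which held 54 of that group's reads, the fitted value was 10.6. The sham call was lost without P2 sham replicate 1 or 2 or P10 sham replicate 1. At baseline (3.76 ± 1.18) and after resection (4.86 ± 1.24) Efemp1 did not pass the test (edgeR, adjusted p = 0.0794 and 0.0793). It was called in 3 of the 7 other fits at baseline and in 4 after resection, with the index as a covariate at 3.78 and 4.88 (edgeR, adjusted p = 0.0402 and 0.0327).

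Efemp2 (ENSMUSG00000024909, chromosome 19, 5473954 to 5482517), a short fibulin that brings lysyl oxidase to tropoelastin, was 329, 347 and 358 CPM at P2 baseline and 263, 380 and 413 CPM at P10 baseline. P10 baseline held both the lowest and the highest of these values. The log2 fold change in the window comparison was 0.11 ± 0.11, with a 95% interval from -0.11 to 0.33 (edgeR, adjusted p = 0.586), and it was -0.013 with the long-transcript index as a covariate. The upper bound lies below the lower bound for Fbln5 (0.79 to 1.26) and for Efemp1 (3.27 to 6.06), the other short fibulins. In all 18 libraries Efemp2 ranged from 239 to 413 CPM.

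Mfap4 (ENSMUSG00000042436, chromosome 11, 61485431 to 61488900), a fibrinogen-domain glycoprotein that binds elastin and fibrillin, was 351, 313 and 498 CPM at P2 baseline and 1743, 2231 and 1665 CPM at P10 baseline. The log2 fold change was 2.28 ± 0.28 (edgeR, adjusted p = 0.000211). It was called after sham surgery too, at 701, 769 and 600 CPM in P2 libraries against 1286, 2077 and 1571 CPM in P10 libraries (1.25 ± 0.27; edgeR, adjusted p = 0.0151), a call lost without P2 sham replicate 3 or P10 sham replicate 2. After resection the values were 809, 762 and 1074 CPM at P2 and 1213, 2488 and 1532 CPM at P10. These did not overlap, and the difference of 0.98 ± 0.27 missed the threshold (edgeR, adjusted p = 0.114), as it did in 4 of the 7 other fits.

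Mfap5 (ENSMUSG00000030116, chromosome 6, 122505845 to 122529290), a small microfibril glycoprotein also called MAGP-2, was 889, 875 and 1547 CPM at P2 baseline and 2327, 2918 and 4218 CPM at P10 baseline (1.52 ± 0.35; edgeR, adjusted p = 0.0183). That call was lost without P2 baseline replicate 1 or 2 or P10 baseline replicate 2 or 3. P2 sham +3 days spread from 802 to 2421 CPM and P2 resected +3 days from 1003 to 1756 CPM. The P10 libraries after surgery were high and close together, from 3826 to 4156 CPM after sham and from 3112 to 3775 CPM after resection. Neither difference passed the test in the fit reported, at 1.18 ± 0.34 after sham (edgeR, adjusted p = 0.0754) and 1.28 ± 0.34 after resection (adjusted p = 0.101). Each was called in 5 of the 7 other fits. The edgeR adjusted p was 0.00607 and 0.0353 with the index as a covariate, and that of DESeq2 0.0186 and 0.0115. The low P2 sham library of Mfap5 had the highest long-transcript index of its group.

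By group, 5 members were called higher at baseline, where 2.71% of all genes rose and 1.68% fell. After sham surgery 5 members were called higher, where 1.54% of all genes rose, and none with only the groups compared in the fit, where 0.908% of all genes were called. After resection no member was called by edgeR in the fit reported, where 0.860% of all genes were called in either direction, and 5 members had an unadjusted p under 0.05, where 8.77% of all genes did. That count depended on the fit. Other edgeR fits called 4 members without the filter, 3 with the covariate, 2 with only the groups compared, 1 with the block and 0 with other size factors, where 1.82%, 2.75%, 2.34%, 1.15% and 0.909% of all genes were called. The DESeq2 Wald test called 3 members and limma voom 5, where 4.09% and 5.62% of all genes were. The groups did not overlap, with P10 higher, for 7 members at baseline and 7 after sham surgery, and for 5 after resection. Over all genes these shares were 10.3%, 9.07% and 10.6%.

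**Figure D3:**
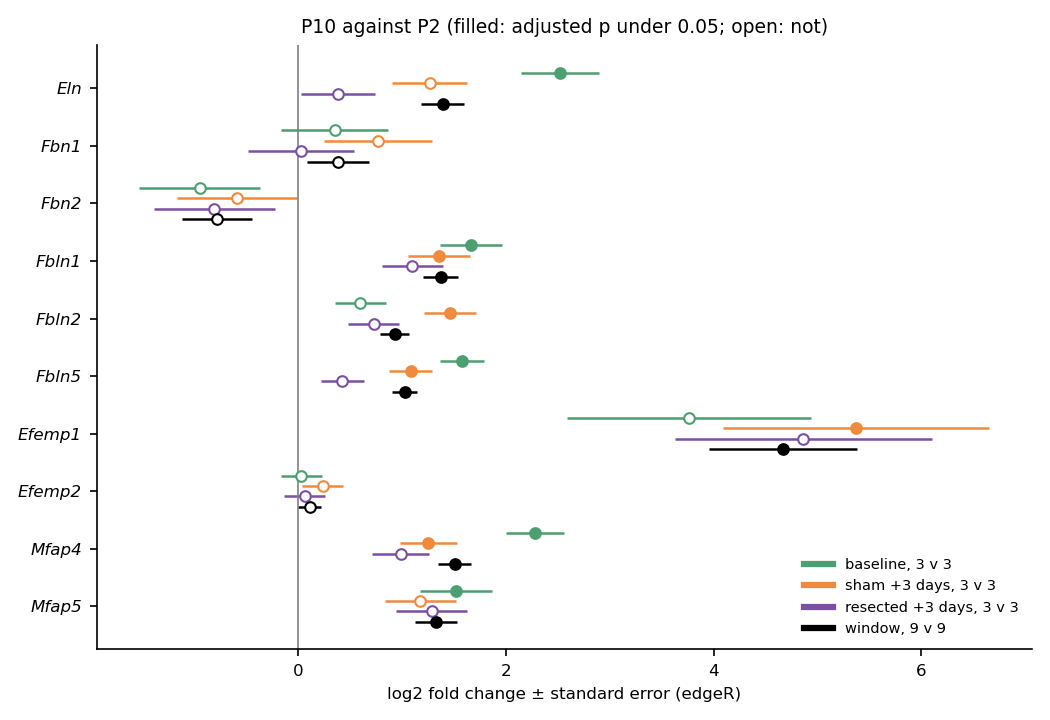
Log2 fold change of each gene, P10 against P2, with its standard error, at baseline, after sham surgery, after resection (3 against 3 libraries each) and between the windows (9 against 9). Filled points have an adjusted p under 0.05. Eln runs from 2.52 at baseline to 0.38 after resection, Efemp2 stays near 0, and Fbn2 lies below 0 in all 4 comparisons.

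P10 baseline was also set against P2 sham +3 days, groups collected at P10 and P5, which differ in age and in surgery. In the fit reported 4 members were called higher by edgeR, Eln, Fbln2, Fbln5 and Mfap4, where 0.693% of all genes rose. Their log2 fold changes were 1.72 ± 0.36, 1.23 ± 0.25, 1.14 ± 0.21 and 1.45 ± 0.27. It shares libraries with the baseline and sham comparisons. With only the groups compared none was called, where 0.00736% of all genes were. With the index as a covariate Fbn1, Fbln1, Efemp1 and Mfap5 were called too, where 5.84% of all genes were, limma voom added Fbln1 and Efemp1 (6.39%), and edgeR without the filter added Fbn1 and Efemp1 (1.90%). Without P10 baseline replicate 2 only Fbln5 was called, and without replicate 3 Fbln5 and Mfap4 were. Without P2 sham replicate 3 the calls were Fbln2, Fbln5 and Efemp1, and without replicate 2 that of Fbln2 was lost. Between P2 baseline and P2 sham +3 days no member was called by edgeR, by DESeq2 or by limma voom. Of all genes edgeR and voom called 0 and DESeq2 1.09%. In this comparison 5 members had an unadjusted p under 0.05, where 7.60% of all genes did. Eln, Fbln1 and Mfap4 were higher in all P2 sham than in all P2 baseline libraries, and Fbln2 and Efemp2 lower, against 4.48% and 5.47% of all genes. Between P10 baseline and P10 sham +3 days no member was called by these tools and none had an unadjusted p under 0.05, where 7.4% of all genes did and edgeR called 0.00618%.

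Resection was compared with sham surgery at each age to see how the injury itself changed the fibroblasts. No member was called at P2 or at P10 by edgeR, by DESeq2 or by limma voom, and in the fit reported edgeR called 0 of all genes in either comparison. DESeq2 called 34 genes at P2 and 43 at P10, edgeR without the filter 24 and 76, and edgeR with the replicate block 1 in each. At an unadjusted p under 0.05 there were 3 members at P2 (Eln, Fbln2 and Fbln5), where 4.51% of all genes had one, and none at P10, where 4.09% did. At P2 the values of 9 of 10 members lay above 0, as did those of 49.9% of all genes, the exception being Mfap5 at -0.35 ± 0.34. The median over the members was 0.58, against 0.00 for all genes tested. In the same comparison the median was 0.56 for mural and smooth muscle markers, 0.94 for macrophage markers and -0.74 for cardiomyocyte markers. It was 0.09 for fibroblast, -0.04 for adventitial fibroblast, 0.24 for endothelial and -0.51 for epicardial and mesothelial markers. None of these markers was called by edgeR, and their part in the members' values was not tested. At P10 the median of the members was 0.08, against 0.02 for all genes tested.

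Eln had the largest value at P2, 0.92 ± 0.36 on the log2 scale with a 95% interval from 0.22 to 1.62 (edgeR, adjusted p = 1). Without the third P2 resected library it was 0.44. In the P2 resected libraries, Eln at 818, 1591 and 2636 CPM went with mural and smooth muscle markers summing to 1297, 2477 and 2679 CPM and with fibroblast markers summing to 58734, 80708 and 93438 CPM. Their part in the spread of Eln was not tested. Fbn1 was next at 0.86 ± 0.52, but its P2 sham libraries held 1743, 575 and 611 CPM, the first of them with the highest long-transcript index of the group, and with the index as a covariate the value was 0.53.

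Fbln2, Fbln5 and Efemp2 were higher in all P2 resected than in all P2 sham libraries. Such separation upward was seen for 5.62% of all genes. Fbln2 was 1047, 1209 and 1400 CPM after resection against 645, 647 and 839 CPM after sham surgery, a log2 difference of 0.78 ± 0.25 (edgeR, unadjusted p = 0.00571, adjusted p = 1). That level after resection overlapped P2 baseline, at 1104, 1326 and 885 CPM. Fbln5 differed by 0.60 ± 0.21 and Efemp2 by 0.32 ± 0.20. At P10 the corresponding differences were 0.05 ± 0.25, -0.06 ± 0.21 and 0.15 ± 0.20.

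The difference between the resection effects, P10 minus P2, was called for no member by edgeR, DESeq2 or limma voom. In the fit reported edgeR called it for 0 of all genes. This difference lay below 0 for 9 of 10 members, from -0.89 ± 0.50 for Eln to -0.17 ± 0.28 for Efemp2, and above 0 for 52.3% of all genes. Of these Fbln5 had an unadjusted p under 0.05, where 2.88% of all genes did. Over both ages together no member was called by the same tools (median 0.31, against 0.03 for all genes tested). Of all genes edgeR called 0 there in the fit reported. Fbln2 had an unadjusted p under 0.05 in this comparison, where 5.78% of all genes did. Set against P2 baseline, a contrast added after the values were seen, the P2 resected libraries did not overlap and were higher for Eln, Fbln1, Fbln5 and Mfap4, at 1.72 ± 0.36, 1.18 ± 0.29, 1.04 ± 0.21 and 1.19 ± 0.27. None of the 4 was called by edgeR in the fit reported (lowest adjusted p = 0.126, where 0.0124% of all genes were called), all 4 had an unadjusted p under 0.05, where 4.53% of all genes did, and DESeq2, limma voom and edgeR without the filter each called these 4, where they called 0.609%, 0.476% and 0.522% of all genes. With the index as a covariate edgeR called Fbln1 and Fbln5, where 0.186% of all genes were called. Libraries separated upward in this way for 7.36% of all genes. This contrast holds the 3 days of growth together with the resection.

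**Figure D4:**
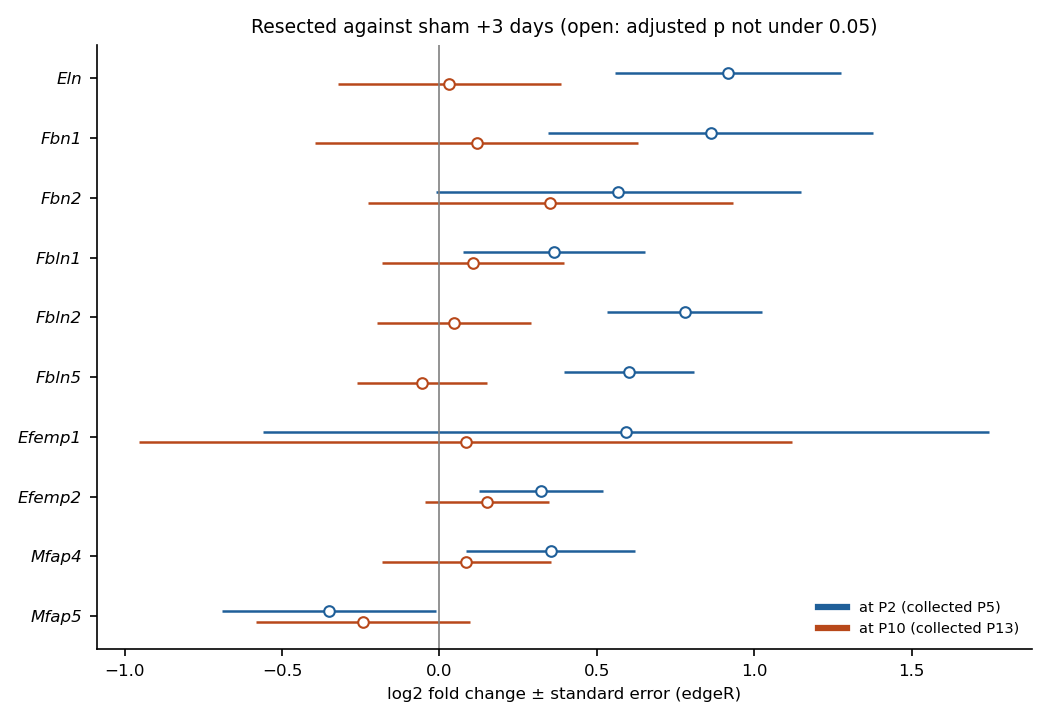
Log2 fold change of each gene, resected against sham +3 days, with its standard error, at P2 (collected at P5) and P10 (collected at P13), 3 against 3 libraries each. All points are open, since no adjusted p is under 0.05. At P2 the values run from -0.35 for Mfap5 to 0.92 for Eln, and at P10 from -0.24 to 0.35.

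Other genes of the elastic fibre were described from fixed lists by the same fit, P10 against P2 window. Of 9 tested genes for other fibre components, 4 rose and 1 fell, with a median log2 fold change of 0.68. Hmcn2, a hemicentin with a fibulin-like end, was 3.14 ± 2.30 CPM (SD, n = 9) in the P2 window and 187 ± 88.8 in the P10 window (log2 fold change 6.17), while its relative Hmcn1 fell by 2.29 on the log2 scale. Emilin3 (3.73) and Emilin2 (1.85), elastin microfibril interface proteins, and Fbln7 (0.76) rose, but Emilin3 was at only 2.21 ± 1.67 CPM in the P10 window. Emilin1, which takes part in elastic fibre formation, was at 1159.7 CPM in the P2 and 1197 CPM in the P10 window and was not called.

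Among the lysyl oxidases, which crosslink elastin and collagen, 1 of 5 rose. This was Loxl1, the member linked to elastic fibres, from 616 ± 138 to 1073 ± 109 CPM (log2 fold change 0.82), while Lox was at 0.15 ± 0.31 and not called. Of the 4 latent TGF-beta binding proteins, 3 rose, Ltbp1 (1.67), Ltbp3 (1.02) and Ltbp4 (0.82). Ltbp4, which works with fibulins in elastin assembly, was at 3343 CPM in the P10 window. Ltbp2 was called at baseline (1.89). Of 9 Adamts, Adamts-like and processing genes, 5 rose, led by Adamtsl2 (2.24), Adamtsl4 (1.58) and Adamts10 (0.76), and Thsd4 fell by 0.70 on the log2 scale. Adamts17 was called at baseline (1.91). All of these bind or act on fibrillin microfibrils.

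Of 7 tested elastin-degrading enzymes, 3 rose, Ctsk (1.01), Mmp2 (0.87) and Ctsl (0.62), while Mmp9 and Mmp12 were near 1 CPM. Of 9 tested elastin and fibrillin receptor genes, 4 rose, Itgb5 (0.77) and Neu1, Ctsa and Glb1 of the elastin receptor complex (0.60, 0.55 and 0.53). The medians of the lists were 0.15 for the lysyl oxidases, 0.92 for the latent TGF-beta binding proteins, 0.76 for the Adamts group, 0.30 for the enzymes and 0.11 for the receptors, against -0.06 for all genes tested. In P2 resected against sham +3 days none of these genes was called by edgeR, and their list medians were 0.28 to 0.50.

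Markers of fibroblast subsets and other cells moved over the same window. All 7 adventitial fibroblast markers rose, led by Pi16 (4.59), Ly6a (4.01) and Ly6c1 (3.51), with Cd248 (1.54) and Cd55 (1.36), and their sum was 528 to 987 CPM at P2 and 1981 to 5754 CPM at P10. Of 10 fibroblast markers 4 rose, led by Gsn (1.91), Dcn (0.95) and Lum (0.72), and Tcf21, used for the labelling, was at -0.012. Mural and smooth muscle markers, which mark another source of elastin, rose for 3 of 10 (Myh11 2.42, Kcnj8 1.10 and Rgs5 0.74), with sums of 1178 to 2679 CPM at P2 and 1247 to 2316 CPM at P10. Of 10 cardiomyocyte markers 6 fell, led by Myh7, Nppa and Myl2. Of 9 endothelial markers Esam rose, of 12 macrophage markers Itgam, at under 1 CPM, and none of 8 epicardial and mesothelial markers was called by edgeR. Their part in the age differences of the members was not tested.

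**Figure D5:**
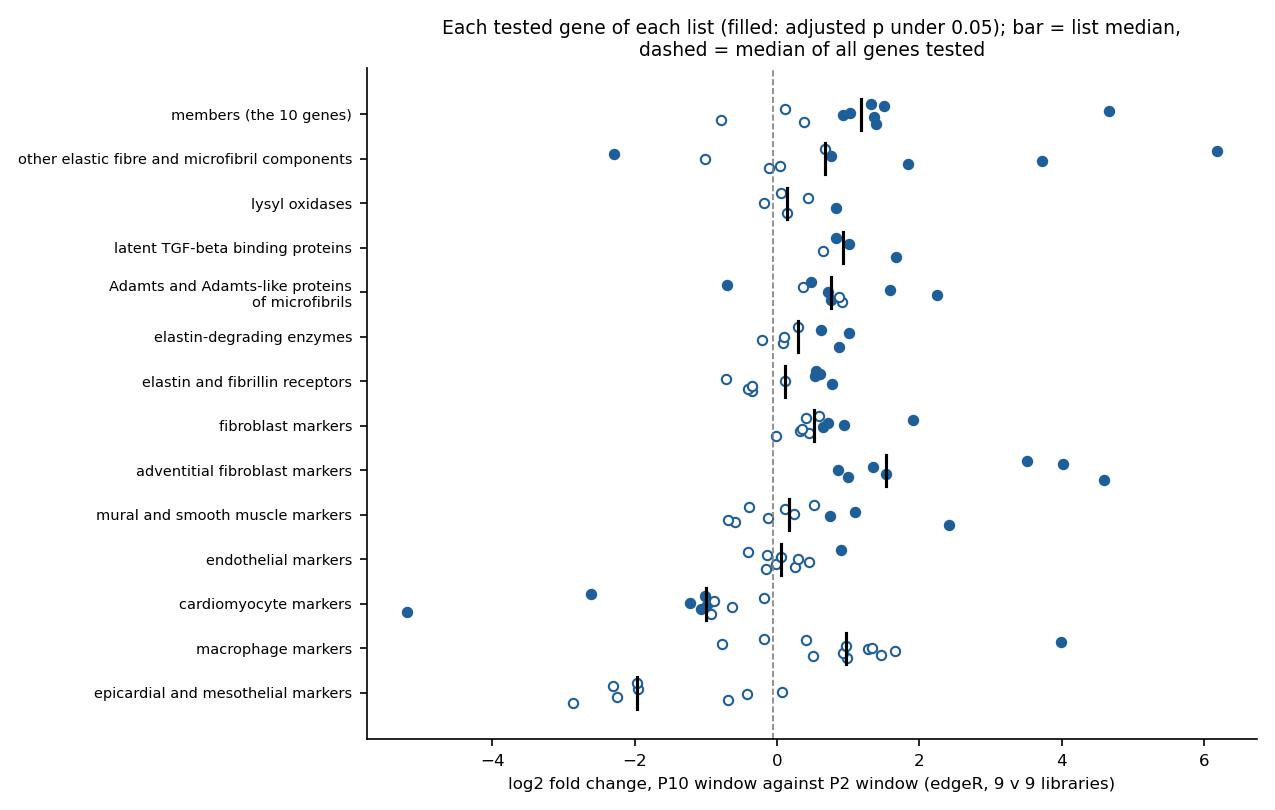
Log2 fold change of each tested gene, P10 against P2 window (9 against 9 libraries), by list, with the 10 members on top. Filled points have an adjusted p under 0.05, bars are list medians and the dashed line is the median of all genes tested. The median is 1.18 for the members and 1.54 for the adventitial fibroblast markers.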

How the data were processed

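Counts per gene symbol were deposited for 18 libraries of sorted Tcf21-lineage cells. RNA was amplified with the SMARTer Ultra Low v4 kit and made into Nextera XT libraries. The authors trimmed the single-end reads with fastp 0.20.0, mapped them with STAR 2.7.0f to GRCm38.p6 with GENCODE M22 and counted reads on exons with featureCounts of Subread 1.6.4 on either strand. The table holds these deposited counts unnormalized, as whole numbers. They were tested in R 4.3.3 with edgeR 4.0.16 (TMM scaling, filterByExpr with a minimum count of 10 and total of 15, glmQLFit and glmQLFTest, 1 mean per group, 16170 genes of 55453). Standard errors were the log2 fold change divided by the root of F, and 95% intervals used the normal quantile. Adjusted p-values are Benjamini-Hochberg over all genes tested and were called under 0.05. There were 11 planned comparisons and 2 added ones. The study's methods name DESeq2, and DESeq2 1.42.0, limma 3.58.1, other size factors, no filter, a replicate block and fits of only the groups compared served as alternatives. Replicate numbers were taken to pair groups where every same-numbered pair of libraries correlated above 0.1 in its deviations from the group means. This held for 3 of 15 pairs of groups, P2 against P10 resected (0.121, 0.189 and 0.130), P2 sham against P10 baseline and P10 baseline against P10 sham. These numbers come from the sample descriptions, which do not say that a number marks a shared litter or day. The sample titles number the libraries otherwise. The block was fitted over all 6 groups with 1 effect for each number, also where the criterion was not met. The criterion came from the same counts as the tests. No reads without gene names were in the table. Libraries held 10462737 to 22980554 counts, which limits Efemp1 at P2 most. Limits from counts cover counting error only, whereas the 95% intervals also cover the spread between libraries.

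The members, the gene lists, the naming rule (all members, then up to 3 called genes of each list with the largest change, and the 5 genes most like Eln and Fbn2) and the tests were chosen with earlier results of these data known. The long-transcript covariate, the fibrillin ratio and a few genes named beyond the rule, Fbln7, Thsd4, Glb1, Lox, Emilin1, Mmp9 and Mmp12, were chosen after values were seen. How often a true 2-fold or 4-fold change of a member would miss the threshold with 3 libraries a group was not tested. A member that was not called may still differ between the groups.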

Additional observations from a re-analysis of the deposited data

How the results depend on the processing

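In the window comparison between 6 and 8 members were called under all alternatives (6 with DESeq2, which gave Efemp1 no p-value), and no member was called in either resection comparison, in their sum or their difference, or between sham and baseline at either age. The other counts moved with the processing. At baseline limma voom called 8 members, where it also called more of all genes than the fit reported (counts below). After sham surgery 8 were called with the long-transcript covariate, again with more of all genes. When only the groups compared were fitted (fewer samples) 0 were called. P10 baseline against P2 sham +3 days likewise gave 8 and 0, where 5.84% and 0.00736% of all genes were called. After resection the counts were 4 without the filter on low counts, 3 with DESeq2, 5 with voom, 1 with the replicate block, 3 with the long-transcript covariate and 2 with only the groups compared. For P2 resected +3 days against P2 baseline they were 4 without the filter, 4 with DESeq2, 4 with voom and 2 with the covariate, and for the age difference after resection minus that at baseline 1, 2 and 3 without the filter, with DESeq2 and with voom, where 0.668%, 0.884% and 0.952% of all genes were called. The cause of these moves was not tested. Leaving out 1 library gave 4 to 5 members at baseline, 3 to 5 after sham surgery (3 without P2 sham replicate 1 or 3), 1 to 5 for P10 baseline against P2 sham, 0 to 0 after resection and 7 to 8 in the window.

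Signs turned for uncalled values. With voom Fbn1 was -0.22 at baseline and -0.023 after resection, and in P10 resected against sham Eln was -0.23, Fbln1 -0.15 and Mfap4 -0.10. With the covariate Efemp2 was -0.15 at baseline, -0.055 after resection and -0.013 in the window, Mfap5 0.045 in P2 resected against sham, and Fbn1 -0.013 in P10 resected against sham. With the replicate block Fbn1 was -0.024 after resection. With 1 library left out, Fbn1 ranged from -0.38 to 0.70 and Efemp2 from -0.10 to 0.20 at baseline, Fbn2 from -1.39 to 0.38 after sham surgery, Fbn1 from -0.15 to 0.21 after resection, and Efemp1 from -0.014 to 5.84 in P2 resected against sham. In P10 resected against sham the ranges were -0.16 to 0.29 for Eln, -0.14 to 0.79 for Fbn1, -0.24 to 0.29 for Fbln1, -0.19 to 0.32 for Fbln2, -0.20 to 0.075 for Fbln5, -0.054 to 0.37 for Efemp1 and -0.26 to 0.29 for Mfap4. Fbn2 was called lower in the window without P10 baseline replicate 1 (-1.05) or P10 sham replicate 1 (-1.05), the libraries with the highest long-transcript index of their groups. Replicate numbers met the criterion for pairing in 3 of 15 pairs of groups. Of 45 same-numbered pairs 15 correlated above 0.1, the median was 0.0466 against -0.0248 for other numbers, and 10 of 18 libraries correlated best with their own number. The block called 7 members in the window, 5 in un-manipulated pups, 7 after sham and 1 (Fbln1) after resection, where 2745, 1008, 636 and 186 of all genes were called. In the other comparisons that met it the block called 4 members (P10 baseline against P2 sham) and 0 (P10 sham against baseline), as without it. The covariate, and the 2 comparisons P2 resected against P2 baseline and resected minus baseline, were chosen after seeing the data. Over all genes, the count called moved by over 1.5 times. At baseline it was 709 as reported, 1155 without the filter, 1671 with DESeq2, 3645 with voom, 1623 with the covariate and 295 with only the groups compared. For sham the counts were 515, 911, 1281 (DESeq2), 1263 (covariate) and 125 (only the groups compared), for resected 139, 526, 506, 908, 444 and 332 in the order given for baseline, and for the window 2184 against 4569 with voom. Leaving out 1 library gave 264 (without P10 baseline replicate 2) to 1207 (without P10 baseline replicate 1) genes at baseline, 312 to 416 for sham, 30 (without P2 resected replicate 2) to 136 for resected, 65 to 442 for P10 baseline against P2 sham and 1680 to 2987 for the window, so the all-gene shares printed beside the members move too. With 3 libraries a group and counts of 0 to 109, Efemp1 at P2 is the member that depth limits most.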
